A study of Homo sapiens with 4 samples.

Results

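The immunoglobulin genes measured on these arrays were the heavy, kappa and lambda segments, the IGLL genes and the J chain gene. They were taken as every transcript cluster, that is every set of probes summarised as 1 gene, whose only annotated symbol begins with an immunoglobulin heavy, kappa or lambda prefix, or is JCHAIN. This gave 117 members among 22411 genes, each represented by 1 cluster. They comprised 41 heavy chain V segments, 8 heavy chain D segments, 4 heavy chain constant genes, 39 kappa V segments, 21 lambda V segments, 1 lambda constant gene, 2 IGLL genes and JCHAIN. By RefSeq, 50 members lie on chromosome 14, 39 on chromosome 2, 24 on chromosome 22, 2 on chromosome 16 and 1 each on chromosomes 21 and 4. The arrays came from U266, an established human myeloma line that secretes IgE with a lambda light chain. Both groups were cultured for 24 h in the same medium. By the methods the control received PBS, while the sample labels call it untreated. The other group received trabectedin, a marine alkaloid that attaches to DNA in its minor groove. The sample labels put the dose at 2.5 nM and the treatment protocol at 2.5 μM. There were 2 arrays in each group, and by the methods the cells came from 2 experiments. The sources do not say whether a control and a treated array with the same replicate number share an experiment. As 1 clonal line, U266 has already joined its V, D and J segments and does not represent the repertoire of plasma cells.

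An antibody chain is encoded by V, J and, for the heavy chain, D segments that are joined by recombination in the developing B cell, after which the joined segment is transcribed together with a constant gene. A plasma cell clone therefore transcribes its rearranged heavy and light chain at a very high rate, while most of its other V segments stay in germline form and give little RNA. Switch recombination later exchanges the constant gene, which in U266 placed the epsilon gene behind the rearranged heavy V segment. The octamer bound by the POU2F1 and POU2F2 proteins, with their partner POU2AF1, is the shared element of V segment promoters. The J chain protein links the units of polymeric IgA and IgM, and plasma cells of other isotypes make it as well.

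The values are log2 expression values of the RMA method, and the level that probes give with little or no target was read from 366 olfactory receptor genes. A member was counted as above background where its mean over the 4 arrays was over the 95th percentile of these genes, 5.41 on the log2 scale. Levels of different clusters also depend on their probes, so their order describes the array and not the amount of RNA. V segments of a subgroup share much of their sequence, and RNA of the rearranged chain can bind probes of a related segment. Which segment U266 uses therefore cannot be read from these symbols with certainty.

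Among plasma cell markers 8 of 8 measured genes were above background, among mature B cell markers 0 of 4 and among erythroid markers 0 of 2. MZB1 was the lowest plasma cell marker, with a mean of 6.34. Over all genes 57.4% were above background. Of the measured T cell, monocyte and NK cell markers, 1 of 4, 1 of 5 and 1 of 4 were above it. The summed log2 level of the 4 T cell markers was 17.8 to 18.4 on the control and 18.8 to 19.2 on the trabectedin arrays. CD3E, the marker above background, differed by 0.33 and CD3G by 0.34 (limma adjusted p = 0.335 and 0.311), both with groups that did not overlap, while CD3D differed by 0.014 and CD2 by 0.19 with overlapping groups. CD3D, CD3G and CD2 were below background in mean. Higher treated values without overlap were found in 35.8% of all genes and in 33.4% of genes above background. Over all features the array medians were 5.19 to 5.28 in control and 5.33 to 5.37 with trabectedin, so that both treated arrays had the higher medians. With quantile normalization repeated, the median difference over all genes was 0.0014 in place of 0.097. CD3E then differed by 0.23 and CD3G by 0.23. The cause of the shift between array medians was not tested.

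JCHAIN and IGLL1 were the members with an entry in the RefSeq promoter table. The J chain promoter is shown because JCHAIN has a defined start site outside the rearranging loci and one of the highest levels of all genes on these arrays. The window spans 250 bases before to 50 after the start on the minus strand, chr4:70666459-70666758 of GRCh38.p14, read 5′ to 3′ along the gene. Capitals mark the octamer without its last letter and, on the opposite strand, the octamer without its first letter.
JCHAIN: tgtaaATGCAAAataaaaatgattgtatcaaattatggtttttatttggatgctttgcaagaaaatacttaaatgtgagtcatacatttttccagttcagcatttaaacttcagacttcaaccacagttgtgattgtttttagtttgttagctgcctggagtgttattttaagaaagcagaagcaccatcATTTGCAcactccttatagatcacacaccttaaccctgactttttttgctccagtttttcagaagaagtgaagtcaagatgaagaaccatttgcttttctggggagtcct
The complete octamer ATGCAAAT is not among these letters on either strand, while 1.77% of 35116 promoters of the same length hold it. The first 7 letters begin 245 bases before the start site and the last 7 begin 60 bases before it. These parts occur on either strand in 4.46% and 4.2% of all promoters, and 0.114% hold both without the complete octamer. The core of the TATA box, searched on both strands with the letters TATAAA, has no match in the J chain window and at least 1 in 11.5% of promoters. The IGLL1 window had no match to any of these motifs. A match is a run of letters and says nothing of binding.

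The highest members formed a small group. IGLV2-18, a lambda V segment, had log2 values of 18.43 and 18.37 in control and 18.29 and 18.36 with trabectedin, and its mean of 18.36 was number 12 in the order of all 22411 genes. IGLC7, a lambda constant gene that closely resembles the other lambda constant genes, had 18.26 and 18.24 in control and 18.19 and 18.28 with trabectedin, number 14 in that order. JCHAIN had 17.53 and 17.34 in control and 17.44 and 17.50 with trabectedin, number 22. Within a group, the arrays of these clusters were widest apart in the JCHAIN controls, where replicate 2 minus replicate 1 was -0.19. IGHEP1, a pseudogene copy of the epsilon constant gene IGHE, had 17.11 and 16.22 in control and 16.91 and 16.29 with trabectedin, number 54. IGHA1, the alpha 1 constant gene, which differs little from IGHA2, had 15.41 and 14.36 in control and 14.77 and 13.94 with trabectedin, number 196. In both heavy chain clusters replicate 1 was above replicate 2 in each group.

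**Figure D1:**
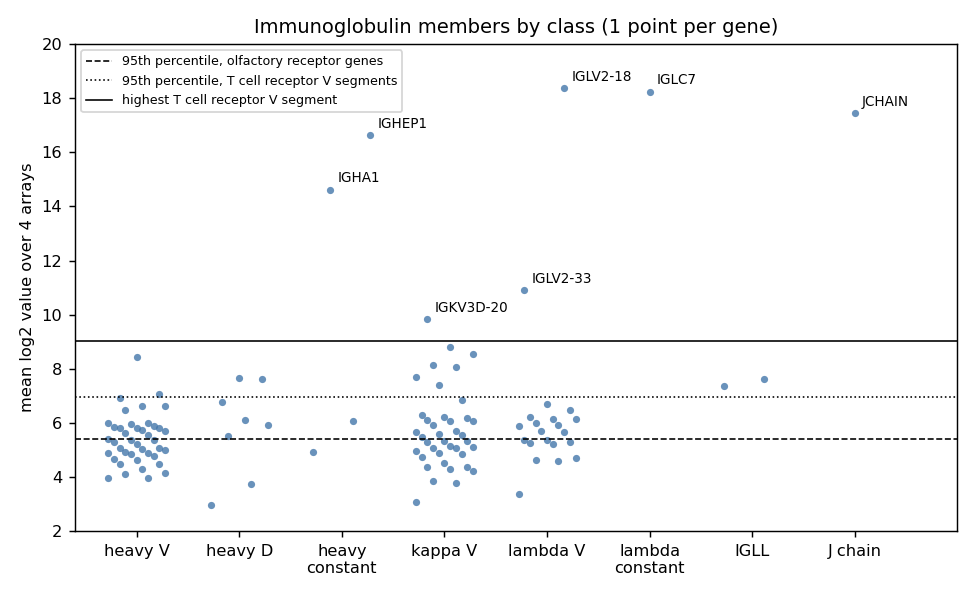
Mean log2 value over the 4 arrays (vertical axis) for each of the 117 members, 1 point per gene, placed by class. The dashed and dotted lines are the 95th percentiles of olfactory receptor genes and of T cell receptor V segments, the solid line is the highest T cell receptor V segment at 9.02, and the 7 members above it are named.

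T cell receptor V segments, which have the same length and structure but are not rearranged in B cells, gave a second reference. Of 70 such segments 20 were above the olfactory receptor threshold (28.6%), and their highest mean was 9.02. All 9 measured T cell receptor D and J segments were above it as well, the highest at 11.76. Of the 117 members, 64 were above the threshold (54.7%), against 57.4% of all genes and 5.19% of the olfactory receptor genes. The 95th percentile of T cell receptor V segments, 6.96, left 19 members. Above every T cell receptor V segment, a limit chosen after the values were seen, were 7 members, namely IGLV2-18, IGLC7, JCHAIN, IGHEP1, IGHA1, IGLV2-33 and IGKV3D-20. Closest to the olfactory receptor threshold were IGHV3-53 at 5.41 just inside and IGLV3-22 at 5.39 just outside.

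Within the lambda locus the values were spread widely. IGLV2-33, the other measured segment of the IGLV2 subgroup, had 10.99 and 10.83 in control and 10.95 and 10.86 with trabectedin, far under IGLV2-18 and above every other lambda V segment. The remaining 19 lambda V segments lay between 3.37 and 6.69, and 10 of them were above background. None of these 19 reached the 95th percentile of T cell receptor V segments. IGLL1, a component of the surrogate light chain of B cell precursors, had 7.35 and 7.21 in control and 7.62 and 7.33 with trabectedin. IGLL3P, a transcribed pseudogene of the same family, had 7.53, 7.71, 7.55 and 7.80 in the same order. Its groups overlapped, as did those of IGLL1.

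Among heavy chain constant genes, IGHEP1 and IGHA1 stood far above the other members of the class. Whether their signal comes from RNA of these genes or of a related constant gene was not tested. IGHG4, the gamma 4 constant gene, had 5.44 and 6.06 in control and 6.14 and 6.65 with trabectedin, and IGHM, the mu constant gene, had 4.77, 5.20, 4.94 and 4.80, below background. IGHE itself is annotated only within a cluster that carries 14 heavy chain symbols and is no member. That cluster had 7.78 and 7.94 in control and 7.89 and 8.07 with trabectedin. Likewise IGKC, the kappa constant gene, appears only in a cluster of 14 kappa symbols, with 7.35 and 7.25 in control and 7.39 and 7.34 with trabectedin. Neither cluster can be assigned to 1 gene.

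Of 41 heavy V segments 19 were above background, and their highest, IGHV3-33, had 8.72 and 8.24 in control and 8.67 and 8.09 with trabectedin. The next were IGHV2-5 with a mean of 7.06 and IGHV6-1 with a mean of 6.93. By subgroup, 8 of 22 IGHV3, 4 of 7 IGHV1 and 3 of 4 IGHV4 segments were above background. The pseudogene copies on chromosomes 16 and 21, which lie outside the heavy chain locus, were all below it. No heavy V segment reached the highest T cell receptor V segment.

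D segments are the shortest members, 28 to 37 bases long, and 6 of 8 were above background. IGHD2-21 had 6.97 and 7.92 in control and 7.95 and 7.80 with trabectedin, and IGHD2-15 had 6.92, 7.89, 7.91 and 7.77, so these clusters moved together on every array. IGHD3-3 had 5.19 and 8.04 in control and 6.48 and 4.70 with trabectedin. Its control arrays differed by 2.85, the widest gap of any member. On trabectedin replicate 1, IGHD3-3 and IGHD3-22 had the identical value of 6.48. Clusters this short and this alike were read as uncertain.

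Kappa V segments were measured in a line that secretes lambda chains, and 20 of 39 were above background. All 6 IGKV3 segments were above it, with means of 7.71 to 9.84, and 12 of 18 IGKV1 but 0 of 10 IGKV2 segments. IGKV3D-20, the highest, had 9.72 and 10.32 in control and 9.97 and 9.37 with trabectedin. IGKV3D-15 followed with a mean of 8.82, IGKV3D-7 with 8.57, IGKV3-7 with 8.16, IGKV3-11 with 8.08 and IGKV3D-11 with 7.71. Below IGKV3D-20 the ranges of neighbours in this order overlapped, but the ends did not: every array of IGKV3D-15 and of IGKV3D-7 was above every array of IGKV3D-11. The kappa locus holds its V segments as a proximal set and an inverted distal copy, whose symbols carry a D. In the distal set 12 of 23 and in the proximal set 8 of 16 members were above background. In 11 pairs with both copies measured, the proximal minus the distal mean ran from -1.87 for IGKV1-8 to 0.80 for IGKV6-21. The pseudogene IGKV1D-27 had a mean of 7.40 against 5.65 for its proximal partner IGKV1-27.

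**Figure D2:**
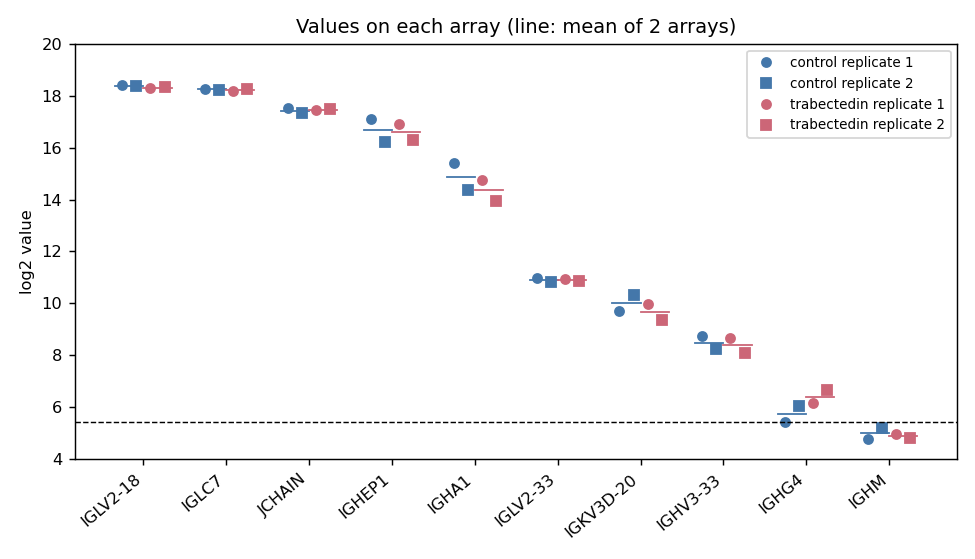
Log2 value on each of the 4 arrays for the 7 members above every T cell receptor V segment and for IGHV3-33, IGHG4 and IGHM. Blue marks control and red trabectedin, circles are replicate 1 and squares replicate 2, horizontal bars are group means of 2 arrays, and the dashed line is the background level of 5.41. IGLV2-18, IGLC7 and JCHAIN are nearly level over all arrays, whereas IGHEP1 and IGHA1 are lower in replicate 2 of both groups.

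The treatment comparison asked whether trabectedin changed these RNAs within 24 h. Of the 117 members 0 passed limma at an adjusted p under 0.05, where the background over all genes was 0%. At an unadjusted p under 0.05 there were 20 members (17.1%) and 3136 of all genes (14%). The methods' t-test, adjusted in the same way, also called 0 members, with 11 members (9.4%) and 2392 of all genes (10.7%) at an unadjusted p under 0.05. The smallest limma adjusted p among members was 0.136. With 2 arrays against 2, an exact two-sided permutation test cannot go below 0.333, a limit that does not apply to limma. Because 0 members passed limma, the counts below describe sizes and not calls.

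The lambda chain clusters and JCHAIN differed little between groups. IGLV2-18 had a mean of 18.40 ± 0.042 (SD, n = 2) in control and 18.32 ± 0.049 (SD, n = 2) with trabectedin, a log2 difference of -0.075 with a standard error of 0.11 and a limma adjusted p of 0.762. The 95% interval of that difference ran from -0.36 to 0.21, or 0.781-fold to 1.15-fold. For IGLC7 the difference was -0.016, with an interval of -0.30 to 0.26. For JCHAIN it was 0.038, with an interval of -0.28 to 0.36. IGLV2-33 differed by -0.0017, with an interval of -0.32 to 0.31. For these 4 clusters the intervals leave out a 1.5-fold change, which is 0.58 on the log2 scale, in either direction. These intervals cover the spread between array values only. IGLV2-18, IGLC7 and JCHAIN lie close to the highest value of each array, the lowest of which was 19.68, and whether a change in RNA is compressed at this level was not tested.

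Heavy chain clusters were less precise. IGHA1 had a mean of 14.88 ± 0.74 (SD, n = 2) in control and 14.36 ± 0.58 (SD, n = 2) with trabectedin, a log2 difference of -0.53 with a standard error of 0.45 and a limma adjusted p of 0.627. Its interval ran from -1.70 to 0.64 and its groups overlapped. IGHEP1 had 16.67 ± 0.63 (SD, n = 2) and 16.60 ± 0.44 (SD, n = 2), a difference of -0.068 with an interval of -1.03 to 0.89. In this fit without a block, a 1.5-fold change in either direction is thus within the interval of both. These intervals include the gaps between replicates that are given below. Without control replicate 1 the IGHA1 difference was near 0, at -0.0025, and without control replicate 2 it was -1.05. Both groups were lower in replicate 2, so leaving out 1 control array also unbalances the replicates. Between arrays of the same number, IGHA1 was lower with trabectedin in both, at 14.77 against 15.41 and 13.94 against 14.36. IGHEP1 was lower with trabectedin in replicate 1 and not in replicate 2.

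The gaps between replicates were larger than the treatment difference in IGHEP1 and IGHA1. IGHEP1 was lower in replicate 2 than in replicate 1 by 0.88 in control and by 0.62 with trabectedin. IGHA1 was lower by 1.05 and 0.83, IGHV3-33 by 0.48 and 0.58, and IGHV3-30, the close relative of IGHV3-33, by 1.38 and 0.53, the latter smaller than its treatment difference of -0.61. IGKV3-11 was also lower, by 0.44 and 0.61. In contrast the same gaps were -0.060 and 0.069 for IGLV2-18 and -0.027 and 0.085 for IGLC7. Of the 64 members above background, 24 had both replicate gaps larger than the treatment difference, and 19 were lower and 16 higher in replicate 2 of both groups. The same counts were not taken over all genes, so these describe the members only.

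**Figure D3:**
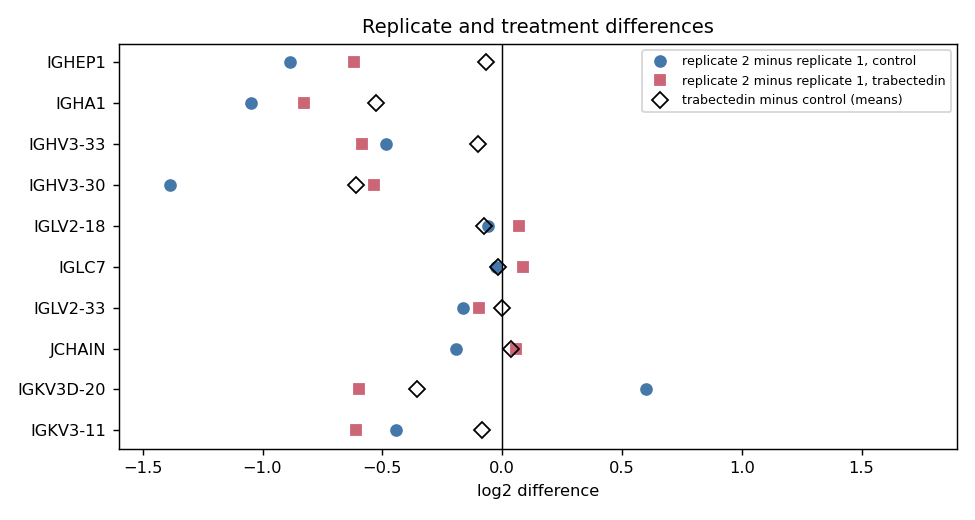
Log2 differences for 10 members: replicate 2 minus replicate 1 in control (blue circles) and with trabectedin (red squares), and trabectedin minus control of the group means (open diamonds). IGHEP1, IGHA1, IGHV3-33, IGHV3-30 and IGKV3-11 have both replicate differences below 0, while the 4 replicate differences of IGLV2-18 and IGLC7 lie between -0.060 and 0.085.

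Differences of at least 1.5-fold were found among members at low levels. Over all members 7 were higher (5.98%, against 2.8% of all genes) and 3 lower (2.56%, against 4.63%). With quantile normalization repeated these counts were 4 and 5, and with scaling to ribosomal protein genes 3 and 7, so the balance between higher and lower depends on the scaling. There were 12 higher members without control replicate 2 and 12 without trabectedin replicate 1, and lower members ranged from 0 without trabectedin replicate 2 to 7 without trabectedin replicate 1. Among members above background 5 were higher (7.81%, against 4.4% of genes above background) and 2 lower (3.12%, against 7.82%). Groups did not overlap in 37 members with higher treated values (31.6%, against 35.8% of all genes) and in 9 with lower ones (7.69%, against 13.5%). Among members above background these were 21 (32.8%, against 33.4%) and 5 (7.81%, against 19.4%). These shares were read against their background only.

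The 5 higher members above background were IGHV3-43, IGHD3-10, IGKV1D-16, IGHG4 and IGHV1-45, all with groups that did not overlap. IGHV3-43 had 6.10 and 6.29 in control and 6.79 and 7.27 with trabectedin, 1.78-fold higher (log2 difference 0.83, standard error 0.20, limma adjusted p = 0.183). IGKV1D-16 had 5.32 and 5.08 in control and 5.84 and 5.94 with trabectedin, 1.62-fold higher (log2 difference 0.69, standard error 0.13, limma adjusted p = 0.136). Its control arrays were below the background level and its treated arrays above it. IGHD3-10 had 4.98 and 6.02 in control against 6.42 and 6.24, 1.78-fold higher with a limma adjusted p of 0.399. IGHV1-45 had 5.61 and 5.79 against 6.08 and 6.54, 1.53-fold higher with a limma adjusted p of 0.271. For IGHG4 the difference was 0.65, with a standard error of 0.28. Single arrays carried much of these sizes: without control replicate 1 the difference was 0.31 for IGHD3-10 and 0.34 for IGHG4, and without control replicate 2 it was 1.35 for IGHD3-10. Without trabectedin replicate 2 it was 0.39 for IGHG4 and 0.38 for IGHV1-45, and without control replicate 2 it was 0.57 for IGKV1D-16, all under 1.5-fold. Over the arrays left out in turn, IGHV3-43 stayed at 0.59 or more. All 5 had means between 5.54 and 6.61, under the 95th percentile of T cell receptor V segments, 6.96. Of 70 such segments 20 were above the background of 5.41. IGLV7-46, named after its value was seen, had the largest difference, from 3.89 and 4.51 to 5.02 and 5.49, but its mean of 4.73 was below background. The other higher member at background was IGKV1D-13, with a difference of 0.59.

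The 2 lower members above background were IGHD3-3 and IGHV3-30, named after their values were seen, and the groups of both overlapped. IGHV3-30 had 6.86 and 5.48 in control and 5.83 and 5.29 with trabectedin, a difference of -0.61 with a standard error of 0.49. IGHD3-3 differed by -1.03 with a standard error of 1.10. The lower member at background was IGHD2-8, with a difference of -0.59. IGKV3D-11 was just short of 1.5-fold, with 8.20 and 7.80 in control and 7.56 and 7.28 with trabectedin, a log2 difference of -0.58 with a standard error of 0.19 and a limma adjusted p of 0.293. Of the 6 IGKV3 segments 5 had lower treated means, and their median difference was -0.22. The proximal copy IGKV3-11, by comparison, differed by -0.083 with overlapping groups.

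Across all members the median log2 difference was 0.14, with 82 members above 0 and 35 below. Among the 64 above background it was 0.11, beside 0.097 over all genes, 0.10 over genes above background, 0.12 over olfactory receptor genes and 0.11 over T cell receptor V segments. Of the 7 members above every T cell receptor V segment, 6 were below 0, with a median of -0.068. By class the median among members above background was 0.20 for heavy V, 0.052 for kappa V and 0.089 for lambda V segments. The medians of the treated arrays over all features were higher as well.

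**Figure D4:**
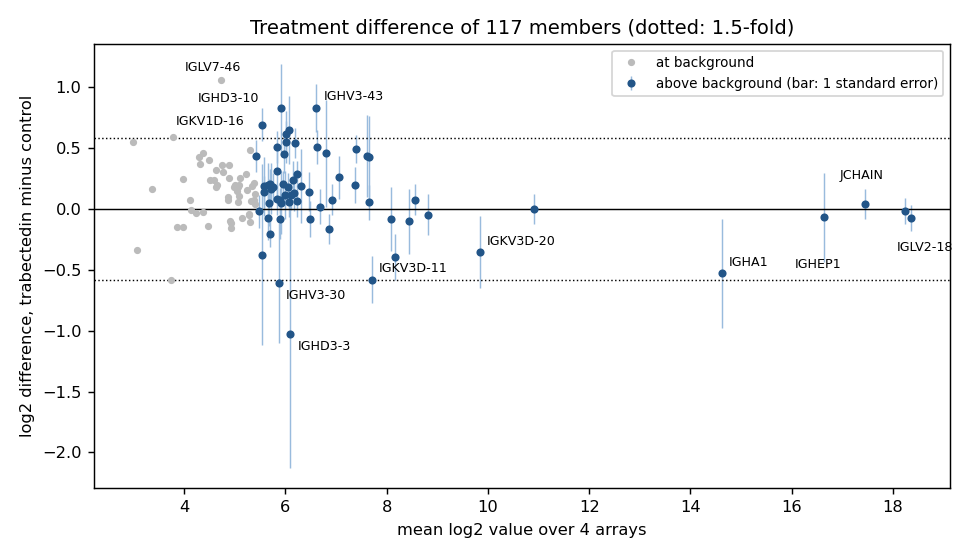
Log2 difference, trabectedin minus control (vertical axis), against the mean log2 value over 4 arrays (horizontal axis) for the 117 members. Blue points with bars of 1 standard error are above background and grey points are not, and dotted lines mark 1.5-fold. Members outside the dotted lines have means under 7, whereas IGLV2-18, IGLC7 and JCHAIN lie close to 0.

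Genes that act on immunoglobulin expression gave the context for these values. Of 12 measured genes of immunoglobulin transcription and RNA processing, 5 had values at least 1.5-fold lower and 0 at least 1.5-fold higher, 0 passed limma after adjustment over all genes and the median log2 difference was -0.34. IKZF1, a zinc finger regulator of lymphoid genes, had 8.95 and 8.79 in control and 7.96 and 8.10 with trabectedin, 1.79-fold lower (standard error 0.13 on the log2 scale, limma adjusted p = 0.0942). POU2F2, an octamer-binding factor, had 10.36 and 9.48 in control and 9.20 and 8.99 with trabectedin, a difference of -0.83 (limma adjusted p = 0.352). IRF4, a plasma cell transcription factor, differed by -0.80 (limma adjusted p = 0.424). XBP1, which directs the expansion of the secretory pathway, had 13.35 and 12.89 in control and 12.38 and 12.29 with trabectedin, a difference of -0.78 (limma adjusted p = 0.175). ELL2, an elongation factor that favours the secreted form of heavy chain mRNA in plasma cells, differed by -0.72 (limma adjusted p = 0.312). In each of these 5 genes both treated arrays were below both control arrays. Over all genes 4.63% were at least 1.5-fold lower and 13.5% had lower treated values without overlap, and 7.82% and 19.4% of genes above background. Without control replicate 1 the count fell from 5 to 1, which was IKZF1 at -0.76. XBP1 was then at -0.56, ELL2 and POU2F2 at -0.39 and IRF4 at -0.33. Without control replicate 2 the count was 6. IRF4, POU2F2, ELL2 and XBP1 were lower in replicate 2 than in replicate 1 of both groups, so leaving out 1 control array unbalances the replicates. For IRF4 replicate 2 minus replicate 1 was -0.94 in control and -0.53 with trabectedin. PAX5, EBF1 and SPIB, which belong to earlier B cell stages, were below background.

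**Figure D5:**
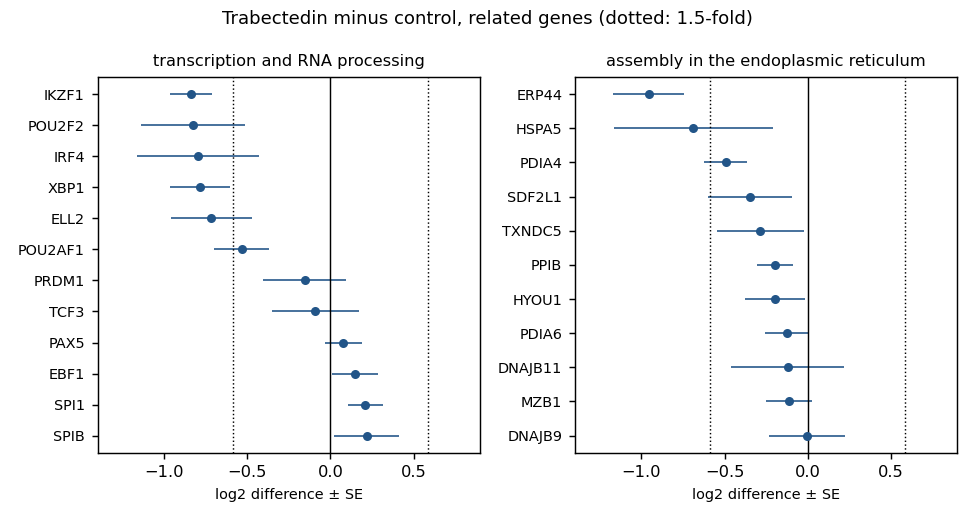
Log2 difference, trabectedin minus control, with bars of 1 standard error, for the measured genes of immunoglobulin transcription and RNA processing (left, 12 genes) and of assembly in the endoplasmic reticulum (right, 11 genes). Dotted lines mark 1.5-fold: IKZF1, POU2F2, IRF4, XBP1 and ELL2 on the left and ERP44 and HSPA5 on the right lie below the lower line, and 0 genes lie above the upper line.

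Of 11 measured genes of chain assembly in the endoplasmic reticulum, 2 had values at least 1.5-fold lower and 0 at least 1.5-fold higher, 0 passed limma after adjustment and the median was -0.20. The share over genes above background was 7.82% lower. ERP44, which retains unassembled oligomers in the early secretory pathway, had 13.30 and 13.30 in control and 12.05 and 12.63 with trabectedin, 1.94-fold lower (limma adjusted p = 0.167). HSPA5, the chaperone that binds free heavy chains, had 17.07 and 18.06 in control and 16.36 and 17.39 with trabectedin, with overlapping groups. HSPA5 was higher in replicate 2 than in replicate 1 by 0.99 in control and by 1.02 with trabectedin. Leaving out 1 array therefore also unbalances the replicates. The HSPA5 difference of -0.69 was -0.19 without control replicate 2 and -0.17 without trabectedin replicate 1. That left ERP44 as the lower gene in both settings, whereas 4 genes were lower without trabectedin replicate 2. PDIA4, a disulfide isomerase, differed by -0.49 (limma adjusted p = 0.212), and SDF2L1, which acts with HSPA5, by -0.35 (limma adjusted p = 0.579). Of 4 measured genes of rearrangement and switching, the repair glycosylase UNG was above background, with a difference of 0.47 (limma adjusted p = 0.499), while RAG1, RAG2 and DNTT were below it. Of 5 receptor partners, CD79A, CD79B and VPREB1 were above background and 0 differed by 1.5-fold. CD79B had a mean of 8.97. VPREB1 with 6.47 and CD79A with 5.98 were under the 95th percentile of T cell receptor V segments, 6.96.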

How the data were processed

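RNA of 4 U266 cultures was hybridized to Affymetrix Human Transcriptome Arrays. The authors processed the arrays by RMA in Affymetrix Expression Console (versions not given in the sources used here), which corrects the background, quantile-normalizes and summarises probes, and deposited the log2 values. Values above 16, more than a scanner of 16 bits gives, show a further rescaling whose form is not given in the sources used here. In all, the deposited table holds 70523 clusters, of which 23781 carry 1 symbol and 1543 several in the platform annotation; only the former entered the fit, with 306 outdated symbols updated through RefSeq (GRCh38.p14) and the cluster of highest mean kept per gene. All 117 members matched RefSeq. Groups were compared over 22411 genes by limma 3.58.1 (lmFit, eBayes, no block) in R 4.3.3 with Benjamini-Hochberg adjustment and a threshold of 0.05, and tables were read with data.table (version 1.17.8). A run of the fit on simulated data, with the same spread for every gene, checked the size of its estimates. No 1.5-fold change was simulated, so that run does not show how many such changes the fit would miss. The 1.5-fold threshold is that of the study's methods.

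The members and gene lists were chosen with earlier results of these data known. Named were every constant gene, IGLL gene and JCHAIN, the 15 V, D or J members of highest mean, members above background of at least 1.5-fold without overlap, and up to 4 genes per list with any the text turns on. Alternatives left out each array, set the replicate number as a block, normalized by quantiles again, scaled to ribosomal protein genes, used a mean-variance trend, a filter at the median level, the mean over clusters, the methods' t-test, a 2-fold threshold and other backgrounds. The number of arrays limits the precision.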

Additional observations from a re-analysis of the deposited data

How the results depend on the processing

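With the replicate number as a block, limma called 6 members, IGHV3-11, IGHV3-43, IGHG4, IGKV1D-16 and IGLV7-46 higher and IGKV3D-11 lower (5.13%, against 6.21% of all genes), with adjusted p of 0.0294 for IGHV3-43, 0.0356 for IGHG4, 0.0428 for IGKV3D-11 and 0.0443 for IGKV1D-16. Of the related genes it called IKZF1, XBP1, IRF4, HSPA5 and ERP44 lower. As a check of pairing, replicate 2 minus replicate 1 correlated between the groups at 0.56 over all genes and at -0.13 over the members. Over the 64 members above background it was -0.11. The members include 53 at background and short D segments such as IGHD3-3, with gaps of 2.85 in control and -1.78 with trabectedin. Their correlation therefore cannot decide the pairing, and no source says that a shared number marks a shared experiment. All other settings that were run called 0 members. Leaving out each array in turn, where the lone array is assumed to vary like the other group, gave 0 called members throughout, 7 to 12 members higher and 0 to 7 lower by 1.5-fold, 60 to 70 above background, 7 above every T cell receptor V segment and a median of 0.067 to 0.19 among members above background. Repeated quantile normalization gave 4 higher and 5 lower, scaling to ribosomal protein genes 3 and 7, and a 2-fold threshold 1 and 1; without the D segments, a choice made after seeing the data, 1 was lower. The 99th percentile of olfactory receptor genes left 32 members and the 95th of T cell receptor V segments 19. Scaling to ribosomal protein genes shifted the median of all genes by -0.22 and that of members above background to -0.11, and turned the differences of JCHAIN (-0.19), IGLL1 (-0.025), IGLL3P (-0.17), IGKV3D-7 (-0.15) and IGHV6-1 (-0.15). The median over members above every T cell receptor V segment was -0.068. Leaving out an array changed the sign of small differences, with ranges of -0.059 to 0.13 for JCHAIN, -0.51 to 0.37 for IGHEP1, -0.34 to 0.10 for IGHM, -0.058 to 0.027 for IGLC7, -0.068 to 0.18 for IGLL3P, -0.083 to 0.080 for IGLV2-33, -0.24 to 0.14 for IGKV3D-15, -0.042 to 0.19 for IGKV3D-7, -0.39 to 0.19 for IGHV3-33, -0.39 to 0.22 for IGKV3-11, -0.050 to 0.91 for IGHD2-21, -0.049 to 0.92 for IGHD2-15 and -0.037 to 0.19 for IGHV6-1. Over the named members, 267 alternative values kept their direction and side of the threshold, 24 changed sign and 4 became called. The causes were not tested. Low signal over background limits most V segments.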
